A study of Mus musculus with 6 samples.

Results

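The intermediate filaments of nerve were followed through 9 genes that encode glial and axonal filament proteins (Gfap, Vim, Nes, Nefl, Nefm, Nefh, Prph, Ina and Sync), out of 19060 genes tested in all. They were chosen as the probes that are not controls and carry 1 of these symbols, which gave 13 probes, and all 13 passed the filter on dim signal. RNA came from sciatic nerves of mice aged 1 month, on the background the labels call C56 BL6, in 3 pools from littermate controls (Ctrl) and 3 pools of OGT_SCKO mice, which the extraction protocol calls OGT-KO. OGT attaches the sugar O-GlcNAc to proteins of the nucleus and cytoplasm, and the series asks how this modification in Schwann cells bears on remyelination and the transcription factor JUN. The driver of the deletion, the alleles that the controls carry and the number of animals per pool are details not given in the sources used here. The p-values therefore reflect differences among pools, not among animals.

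Intermediate filaments are rope-like polymers that give cells mechanical strength, and each cell type assembles its own mix of subunits. Immature and non-myelinating Schwann cells, the glia of peripheral nerve, are known to carry GFAP, and GFAP rises in Schwann cells after nerve injury. Vimentin is common to Schwann cells, fibroblasts and endothelium, and nestin marks immature and regenerating cells. In axons the filament is built from the light, medium and heavy neurofilament proteins with peripherin and alpha-internexin. Axons belong to neurons whose cell bodies lie outside the nerve. Which cells gave the RNA of these genes here was not tested. In bulk RNA, fewer cells of a type and less RNA per cell cannot be told apart.

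The result turns on Gfap and, among the axonal genes, on Prph, so probes that read their coding parts are shown first. The Gfap probe lies at chr11:102752726-102752785 (mm9, minus strand) and begins at base 1294 of transcript variant 1 in the array's annotation. Of the 3 Gfap probes it alone has a reading frame with no stop codon. The Prph probe lies at chr15:98889042-98889101 (mm9, plus strand) and ends with a stop codon in the frame that is open before it, shown in capitals. The Nefh probe at chr11:4839396-4839455 (mm9, minus strand) is 1 of 2 for that gene and is shown because its change was smaller than that of its partner. Positions, strands and variants are those in the array files.
Gfap variant 1, upstream probe: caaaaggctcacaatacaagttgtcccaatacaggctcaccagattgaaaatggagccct
Prph: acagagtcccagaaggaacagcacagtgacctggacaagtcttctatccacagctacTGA
Nefh, second probe: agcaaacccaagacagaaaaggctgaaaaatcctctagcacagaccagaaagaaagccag

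Gfap rose in OGT_SCKO nerves, Prph fell, and the other 7 genes did not pass the test. That is 22.2% of the genes, and 23.3% of all genes passed, so the count of calls is near the background. Within the family the sizes were unequal: Gfap had the 14th largest fitted rise of 19060 genes, while the other 8 had log2 fold changes between -0.67 and 0.50. The median log2 fold change of the 9 was 0.04, beside -0.07 over all genes. Levels below are log2 of the processed signal relative to the 75th percentile of the array, and changes are log2 fold changes from limma with p-values adjusted by Benjamini-Hochberg over all genes.

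The checks of the pools take few values. Ogt stood at 41.3% of the Ctrl level (limma adjusted p = 0.00117) and Jun was 2.64-fold higher (adjusted p = 0.000704). Which part of Ogt was deleted was not known here, and a probe outside it would check nothing. Slide 1 carried Ctrl 2 and all OGT_SCKO arrays and slide 2 carried Ctrl 1 and Ctrl 3, so the contrast within a slide rests on Ctrl 2 alone. The share of probes above background ran from 59.0% to 65.2% over the arrays, with 0 saturated spots, and the number of arrays limits the precision. All 6 general Schwann cell markers were measured.

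**Figure D1:**
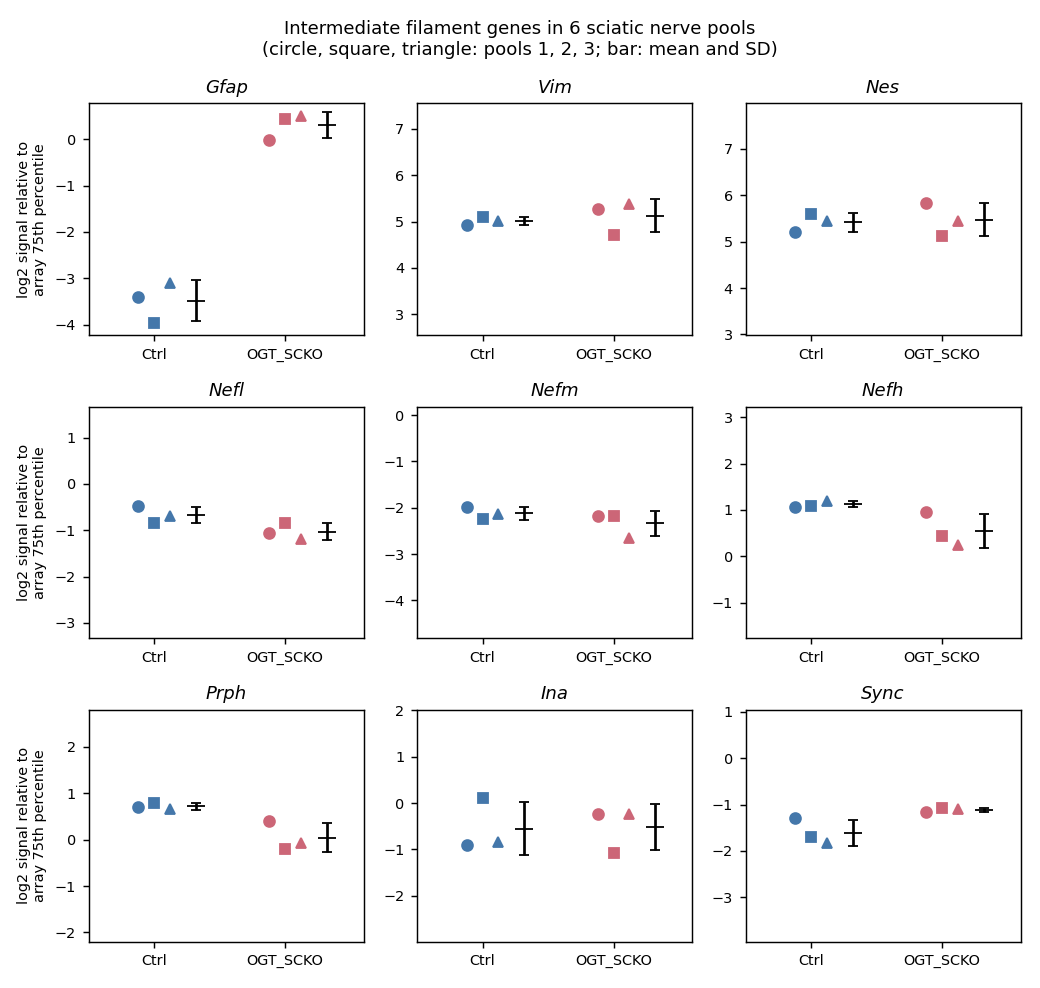
Level of each filament gene in the 6 pools: the vertical axis is log2 signal relative to the array's 75th percentile, spanning the same number of units in each panel, points are pools and bars give the mean and SD of 3. The groups of Gfap stand far apart, Nefh, Prph and Sync are separated by little, and those of the other 5 genes overlap.

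Gfap encodes glial fibrillary acidic protein, a type III filament protein. Its downstream variant 1 probe (chr11:102751813-102751872, mm9, minus strand), the brightest of 3 over the 6 arrays, read -3.40, -3.97 and -3.09 in Ctrl 1, 2 and 3 and -0.03, 0.44 and 0.51 in OGT_SCKO 1, 2 and 3. All 3 OGT_SCKO pools lay above all 3 Ctrl pools, and the gap between the groups was several times the range within either. Mean levels were -3.49 ± 0.44 (SD, n = 3) in Ctrl and 0.31 ± 0.29 (SD, n = 3) in OGT_SCKO. In processed signal the Ctrl arrays gave 392, 176 and 505 and the OGT_SCKO arrays 3396, 8300 and 6858, before any scaling between arrays. The rise was 13.9-fold, with a log2 fold change of 3.79 (95% confidence interval 3.19 to 4.40, SE 0.25; limma adjusted p = 0.000304). An exact permutation test (two-sided) returned p = 0.1, which is as low as 3 against 3 pools can go. The rise passed under all 18 other settings, with folds from 9.05 with normexp background correction to 19.3 against Ctrl 2 alone.

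The gene makes transcripts with different 3′ ends, and the array has probes for both that its annotation names. Whether a probe reads its transcript alone was not tested. At the upstream variant 1 probe printed above, the levels were -6.10, -6.71 and -5.78 in Ctrl and -2.80, -2.47 and -2.27 in OGT_SCKO. No Ctrl array had this probe well above background while all OGT_SCKO arrays did, so it was kept through OGT_SCKO alone and its difference is given as a description, at least 5.84-fold. For the bound, each Ctrl array entered with its lowest signal well above background, or with the probe's value where that was higher. It is on the scale of the processed signal; normexp, which adds an offset to every spot, gave a fitted fold of 3.80. The variant 2 probe (chr11:102748864-102748923, mm9, minus strand) read -3.19, -3.41 and -2.92 in Ctrl and -0.10, -0.39 and 0.12 in OGT_SCKO. Its 8.24-fold rise (log2 fold change 3.04, SE 0.18, limma adjusted p = 0.000201 over all probes) was well above background in every pool. So a probe for each annotated transcript rose with all Ctrl pools above background, and at both the groups did not overlap, beside 20.9% of kept probes that were higher without overlap.

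Of the 2 probes measured in every pool, the downstream variant 1 probe had the larger fitted rise. Whether the transcripts themselves rose unequally was not tested. Within each array, the downstream variant 1 probe gained on the variant 2 probe by 0.75 on the log2 scale, and the groups did not overlap (SD 0.21 in Ctrl and 0.38 in OGT_SCKO; exact permutation p = 0.1, the smallest possible). The gain was 0.77 with quantile normalisation, 0.58 with normexp and 0.75 in the values of the authors' deposited table. The upstream probe has only a bound in Ctrl, so its change was not set against those of the others.

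**Figure D2:**
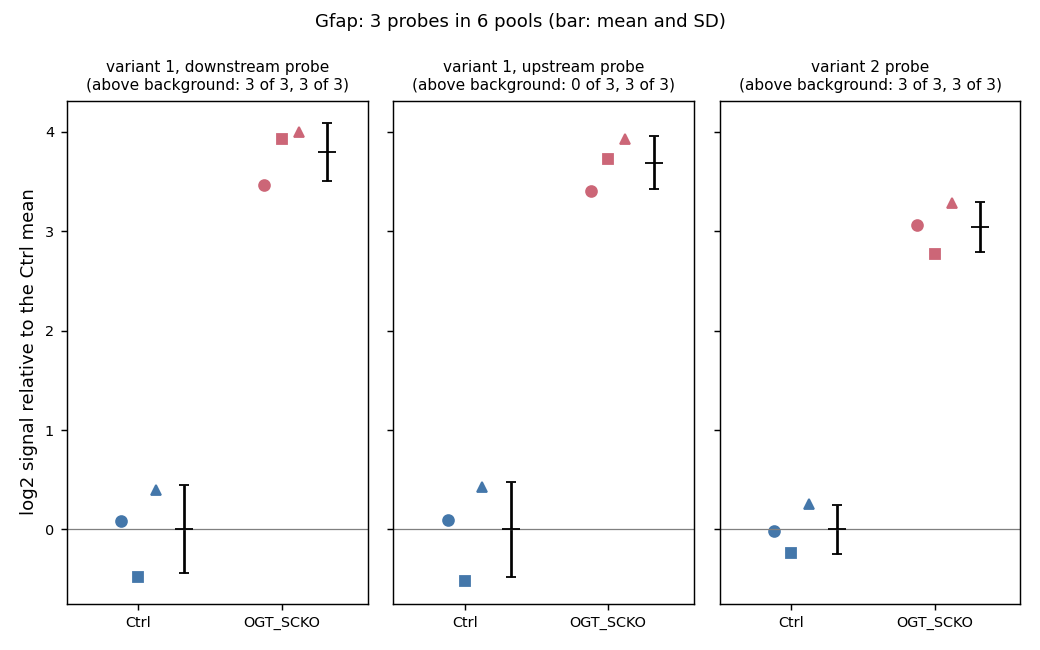
Log2 signal of the 3 Gfap probes relative to the Ctrl mean of each probe (vertical axis), by pool, with mean and SD of 3. OGT_SCKO pools lie at least 3.46 above the Ctrl mean at the downstream variant 1 probe and 2.78 at the variant 2 probe; at the upstream probe no Ctrl point was above background, so its distance is not a measured one.

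Vim and Nes, the other glial filament genes, did not pass the test. Vim encodes vimentin, the general type III filament of mesenchymal and glial cells. Its levels (chr2:13504232-13504291, mm9, plus strand) were 4.92, 5.10 and 5.01 in Ctrl and 5.27, 4.72 and 5.38 in OGT_SCKO. The Ctrl pools lay inside the range of the OGT_SCKO pools. The log2 fold change was 0.11 (SE 0.19, 95% confidence interval -0.34 to 0.56, limma adjusted p = 0.686). Nes encodes nestin, a type IV filament of progenitor cells. It read 5.21, 5.60 and 5.44 in Ctrl and 5.84, 5.13 and 5.45 in OGT_SCKO (chr3:87784303-87784362, mm9, plus strand), with overlapping groups. Its log2 fold change was 0.06 (SE 0.21, 95% confidence interval -0.43 to 0.54, limma adjusted p = 0.863). OGT_SCKO 2 was the lowest of all 6 pools for both genes and, at 6136, its array had the highest 75th percentile of signal, whose part in these values was not tested.

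Scaling decides whether Nes passed. With quantile normalisation Nes passed at 0.35 (limma adjusted p = 0.0377), as it did at 0.34 on the values of the authors' deposited table (adjusted p = 0.0385), while Vim reached 0.37 and 0.33 and passed in neither (adjusted p = 0.0834 and 0.102). The median over all genes moved from -0.07 to -0.01 under quantile normalisation, less than either gene. Medians of some marker lists given below moved further, from -0.40 to -0.06 for fibroblasts and from -0.34 to -0.04 for general Schwann markers. Those of neurons (-0.18 to -0.12) and skeletal muscle (-1.07 to -1.04) moved little, so the shift was not particular to Vim and Nes. Nes was below 0 in 4 of 18 other settings (-0.13 against Ctrl 2 alone) and Vim in 1. Under no setting did the fold of either gene exceed 1.29. Relative to Vim, Gfap gained 3.68 within arrays and relative to Nes 3.74, with no overlap between groups (exact permutation p = 0.1, the smallest possible, and 0.4 adjusted over the 8 pairs of genes compared). Vim and Nes differed from each other by 0.06 in their change (exact permutation p = 0.8).

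Among the axonal filament genes Prph fell. Of 5 genes 4 had negative log2 fold changes, with a median of -0.36, beside -0.07 over all genes. Prph alone passed, which is 20% of the 5, beside 23.3% of all genes. The sign of those 4 held under all 18 other settings, which draw on the same arrays. Prph encodes peripherin, a type III filament of peripheral neurons. Its levels were 0.71, 0.79 and 0.65 in Ctrl and 0.41, -0.19 and -0.08 in OGT_SCKO. Each OGT_SCKO pool lay below each Ctrl pool, and OGT_SCKO 1 lay nearest to the controls. The fall was 1.59-fold, to 62.8% of Ctrl, with a log2 fold change of -0.67 (95% confidence interval -1.08 to -0.26, SE 0.17; limma adjusted p = 0.0351; exact permutation p = 0.1). The call held under 9 of the 18 settings. It ended with slide as a fixed block (-0.75, limma adjusted p = 0.151) and held with slide as a random block (-0.66, adjusted p = 0.024). Against Ctrl 2 on slide 1 alone the change was -0.75. The call also ended with the replicate block (adjusted p = 0.101) and without the filter (adjusted p = 0.0838). It ended too when Ctrl 1, Ctrl 2, Ctrl 3, OGT_SCKO 2 or OGT_SCKO 3 was left out (adjusted p = 0.0982, 0.105, 0.0958, 0.061 and 0.124). Below, slide as a block means a fixed block unless it is called random.

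The neurofilament triplet had smaller, negative changes that did not pass. Nefh encodes the heavy subunit, whose long tail spaces neighbouring filaments. At its brighter probe (chr11:4838758-4838817, mm9, minus strand) it read 1.07, 1.09 and 1.20 in Ctrl and 0.96, 0.44 and 0.25 in OGT_SCKO. The groups did not overlap, although OGT_SCKO 1 came close to the lowest Ctrl pool. The log2 fold change was -0.57 (95% confidence interval -1.03 to -0.12, SE 0.19; limma adjusted p = 0.0747). The second Nefh probe, printed above, read -2.26, -2.42 and -2.16 in Ctrl and -2.23, -2.60 and -2.94 in OGT_SCKO, with overlap and a change of -0.31 (SE 0.19; limma adjusted p = 0.273 over all probes). The brighter probe passed without OGT_SCKO 1 (-0.78, adjusted p = 0.0102) and with slide as a random block (-0.58, adjusted p = 0.0489), for which limma estimated a negative within-slide correlation of -0.14. It did not pass with slide as a fixed block (-0.54, adjusted p = 0.27).

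Nefl encodes the light subunit, on which the other neurofilament proteins assemble. It read -0.48, -0.85 and -0.69 in Ctrl and -1.07, -0.84 and -1.19 in OGT_SCKO (chr14:68705638-68705698, mm9, plus strand). OGT_SCKO 2 fell among the Ctrl pools, and the log2 fold change was -0.36 (SE 0.15, 95% confidence interval -0.71 to -0.0098, limma adjusted p = 0.122). Nefm, the medium subunit, was read by 10 spots of the same probe (chr14:68738193-68738252, mm9, minus strand), whose SD within an array was 0.050 to 0.070. Its levels were -1.99, -2.25 and -2.13 in Ctrl and -2.17, -2.19 and -2.65 in OGT_SCKO. OGT_SCKO 3 alone lay below the Ctrl range, and the log2 fold change was -0.21 (95% confidence interval -0.60 to 0.18, SE 0.16; limma adjusted p = 0.361).

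No unequal change was detected among the triplet. Nefl and Nefm differed in their change by -0.15, Nefl and Nefh by 0.21 and Nefm and Nefh by 0.36 (exact permutation p = 0.3, 0.5 and 0.2). Differences between Nefl and Prph (0.31) and between Nefl and Ina (-0.40) were no larger than their spread between pools (exact permutation p = 0.4 and 0.6). With 3 pools per group these tests cannot go under 0.1.

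Ina encodes alpha-internexin, a type IV filament of neurons. Its brighter probe (chr19:47098781-47098840, mm9, plus strand) read -0.91, 0.10 and -0.85 in Ctrl and -0.23, -1.08 and -0.24 in OGT_SCKO. Ctrl 2 was the highest pool and the groups overlapped widely (change 0.04, 95% confidence interval -0.79 to 0.86, SE 0.35; limma adjusted p = 0.948). The value rests on Ctrl 2: without it the change was 0.36, and against it alone -0.62, neither passing the test (adjusted p = 0.432, and 0.297 with slide as a block). The other Ina probe (chr19:47099350-47099409, mm9, plus strand), above background on 2 of 3 Ctrl arrays, had a change of -0.25 (SE 0.18; limma adjusted p = 0.344 over all probes).

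Sync encodes syncoilin, a filament protein best known from muscle, where it binds the dystrophin-associated complex. It read -1.30, -1.69 and -1.84 in Ctrl and -1.17, -1.08 and -1.09 in OGT_SCKO (chr4:128985686-128985745, mm9, plus strand). All OGT_SCKO pools lay above all Ctrl pools, with Ctrl 1 close to them. The difference of 1.41-fold missed the threshold (log2 fold change 0.50, 95% confidence interval 0.12 to 0.87, SE 0.16; limma adjusted p = 0.063). It passed with quantile normalisation (adjusted p = 0.0458), on the values of the authors' deposited table (adjusted p = 0.0446), with slide as a random block (adjusted p = 0.0467) and without Ctrl 1 (adjusted p = 0.0313), and not with slide as a fixed block (0.58, adjusted p = 0.192). The groups did not overlap for 4 of the 9 genes, beside 45.7% of all genes. Gfap and Sync were higher without overlap, beside 20.4% of all genes, and Nefh and Prph were lower, beside 25.3%.

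**Figure D3:**
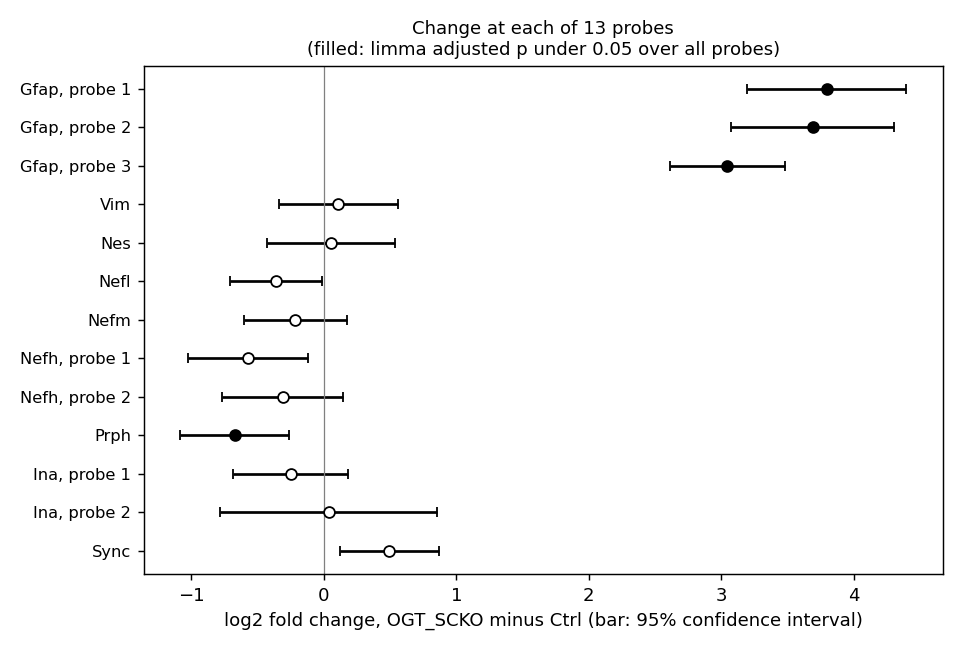
Log2 fold change (horizontal axis) with 95% confidence interval for each of the 13 probes, in a limma fit over all kept probes; filled points passed. The downstream variant 1 and variant 2 probes of Gfap (probes 1 and 3) lie at 3.79 and 3.04, and Prph is the one other gene with a filled point; Gfap probe 2 is drawn at its fitted value over Ctrl arrays not above background.

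Probe by probe, the downstream variant 1 and variant 2 probes of Gfap and the probe of Prph passed, beside 23.5% of all kept probes; the upstream Gfap probe, kept through OGT_SCKO alone, is not counted. The lists of related genes were read in the same fit. Of 48 genes in 4 lists of the filament network, 44 were measured, 5 rose, 9 fell and 30 did not pass, with a median log2 fold change of -0.12. That is 31.8% called, beside 23.3% of all genes. Of all genes, 11.2% rose and 12.1% fell. With slide as a block 5 of the 44 passed, Bfsp2, Krt10, Krt19, Ppl and Tubb2b, and against Ctrl 2 on slide 1 alone 1 passed, Bfsp2; without Ctrl 1, Ctrl 2, Ctrl 3 or OGT_SCKO 3 it was 5 or 6, and with normexp 9.

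Other filament subunits gave 2 higher, 4 lower and 7 that did not pass of 13 measured, with a median of -0.22. Bfsp2, a beaded filament protein known from the lens, fell by 1.87 on the log2 scale, or 3.66-fold (SE 0.11; limma adjusted p = 0.000224). Its levels were 2.22, 2.10 and 2.02 in Ctrl and 0.35, 0.24 and 0.14 in OGT_SCKO, far apart. Among keratins, the filaments of epithelia, Krt19 fell 2.19-fold and Krt10 2.12-fold (limma adjusted p = 0.00329 and 0.00104). Lmna, a nuclear lamin, rose 1.43-fold (limma adjusted p = 0.0137; 0.12 with slide as a block). Des (desmin), the muscle type III filament, had a change of -0.22 (limma adjusted p = 0.33), and Synm (synemin), a type IV partner of vimentin and GFAP filaments, 0.51 (adjusted p = 0.148).

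Linker genes tie filaments to membranes and to other cytoskeletal fibres. Of 8 measured, 1 rose, 2 fell and 5 did not pass (median 0.05). Ppl, periplakin, fell 2.89-fold, by 1.53 on the log2 scale (SE 0.13; limma adjusted p = 0.000694, and 0.0943 with normexp). The nesprins Syne4 and Syne3, which join the nucleus to the cytoskeleton, had log2 fold changes of -0.89 and 0.69 (limma adjusted p = 0.0361 and 0.0402; 0.238 and 0.0723 with slide as a block). Plec, plectin, the general linker of vimentin and GFAP filaments, had 0.05 (adjusted p = 0.841). Of 11 measured partners (kinases, transport motors and turnover factors of filaments), 1 fell and none rose in limma, where 2 fell and 0 rose at an unadjusted p under 0.05 (median -0.13). Cdk5, a kinase of neurofilament tails, fell 1.65-fold, by 0.72 on the log2 scale (SE 0.093; limma adjusted p = 0.0033, and 0.0559 with slide as a block). Kif5a, a motor that carries neurofilaments, had -0.41 (adjusted p = 0.12).

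Of 12 genes of tubulin, actin and the growing cytoskeleton 2 rose, 2 fell and 8 did not pass; the median was -0.13, and 0.13 with quantile normalisation and 0.12 in the deposited values. Tubb2b, a tubulin of growing neurites, rose 1.61-fold and Map1b, a microtubule protein of growing axons, 1.40-fold (limma adjusted p = 0.0145 and 0.0336). Stmn2, a neuronal tubulin-binding protein, fell 1.43-fold and Tubb2a 1.44-fold (limma adjusted p = 0.0341 and 0.0433). Blocking on slide ended the calls of Map1b, Stmn2 and Tubb2a (adjusted p = 0.115, 0.258 and 0.165) at log2 fold changes of 0.60, -0.36 and -0.60, beside 0.48, -0.51 and -0.53. Tubb3, the neuronal tubulin, had a log2 fold change of -0.12 (adjusted p = 0.569).

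**Figure D4:**
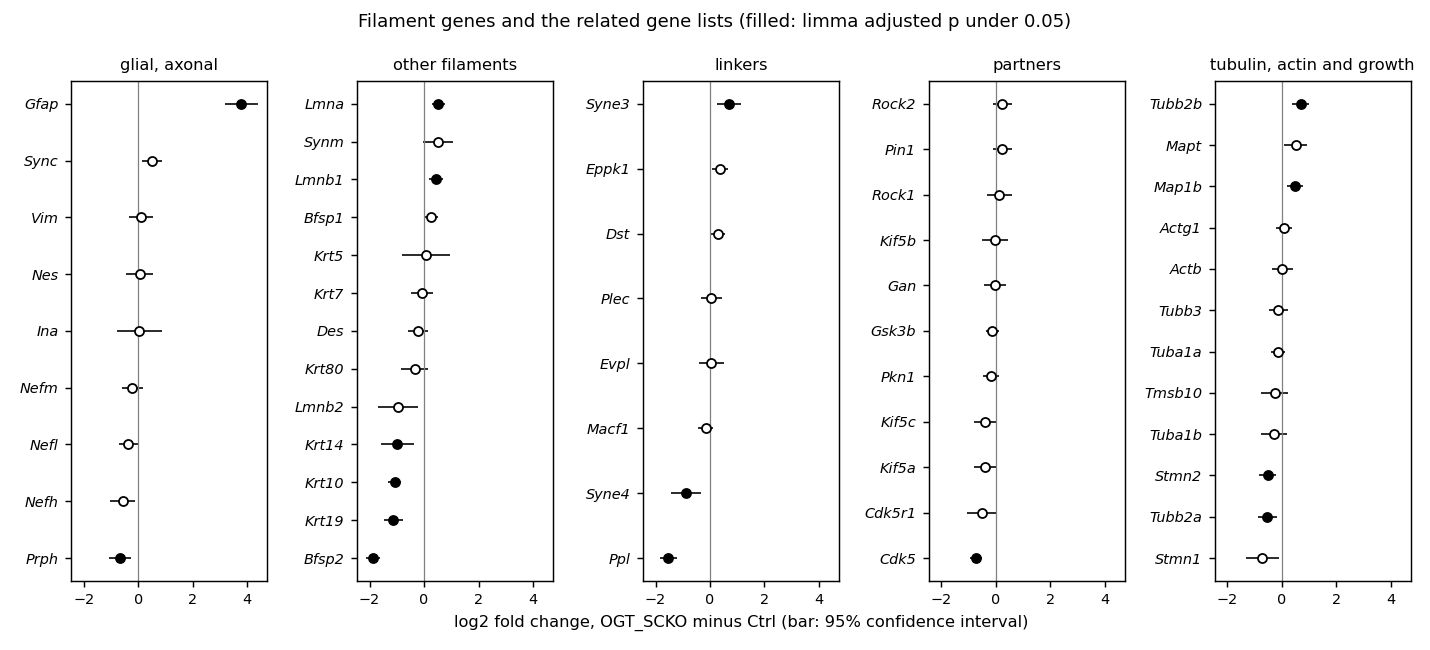
Log2 fold change (horizontal axis) with 95% confidence interval for the 9 filament genes and the measured genes of 4 related lists, sorted within each panel; filled points passed. Gfap lies at 3.79, beyond every gene of the related lists, the lowest of which is Bfsp2 at -1.87.

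Markers of the cells that make these filaments are given beside them; their part in the results was not tested. Summed levels are log2 of the summed relative signal of a list's measured genes. Of 13 neuron markers, 7 passed the filter, Syt1 among them through Ctrl alone, and 1 rose. Elavl3, Tac1, Chat, Isl1, Scn9a and Scn10a did not pass the filter. Uchl1, a neuronal hydrolase also known in other cells, rose 3.89-fold (limma adjusted p = 0.000288). Syt1, a synaptic vesicle protein, was above background on all Ctrl arrays and on no OGT_SCKO array. Its difference is given as a description, at least 4.26-fold lower in OGT_SCKO on the scale of the processed signal. With normexp the fitted fold of Syt1 was 2.61. The summed level ran from 3.13 to 3.65 in Ctrl and from 3.94 to 4.30 in OGT_SCKO. Of the 7 genes Uchl1 alone rose, from 1.72, 1.34 and 1.47 in Ctrl to 3.41, 3.49 and 3.51 in OGT_SCKO. The median log2 fold change of the 7 was -0.18 (0.02 with normexp). Calca, Elavl4 and Snap25 had negative changes that did not pass, and Syt1 has only the bound. Uchl1, Rbfox3 (0.55) and Map2 (0.23) had positive changes, and those of Rbfox3 and Map2 did not pass.

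Beside Gfap, 8 markers of immature or non-myelinating Schwann cells were measured, with 3 higher (Gap43, Cadm1 and Ngfr) and 2 lower (Cdh2 and Ncam1). Gap43, a growth-associated protein, rose 2.21-fold, and it alone of the 5 passed with slide as a block. Their summed level ran from 5.02 to 5.35 in Ctrl and from 5.10 to 5.52 in OGT_SCKO, ranges that overlap, and that of 6 general Schwann markers from 8.25 to 8.58 and from 7.64 to 8.32. Among them S100b fell 1.59-fold and Foxd3 rose 1.67-fold (limma adjusted p = 0.0114 and 0.0471; 0.0929 and 0.145 when slide was a block).

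Beside Vim and Nes, none of 7 fibroblast markers and none of 7 macrophage markers passed in limma. At an unadjusted p under 0.05, 0 fibroblast markers were higher and 1 lower, and 1 macrophage marker was higher and 1 lower. With quantile normalisation 1 fibroblast marker passed as higher. The fibroblast sum ran from 8.59 to 9.28 in Ctrl and from 8.01 to 8.84 in OGT_SCKO, and the macrophage sum from 5.29 to 5.52 and from 5.10 to 5.50. Of 7 endothelial markers Vwf and Egfl7 fell, and of 7 mural markers Pdgfrb rose and Kcnj8 fell, calls that ended with slide as a block. The call of Vwf also ended with the mean of its probes (limma adjusted p = 0.19). That of Egfl7 ended with quantile normalisation (adjusted p = 0.0582) and that of Kcnj8 with normexp (adjusted p = 0.687). The endothelial sum ran from 5.13 to 5.29 in Ctrl and from 4.53 to 4.85 in OGT_SCKO, with no overlap, and the mural sum from 4.41 to 4.73 and from 4.05 to 4.45. Of 4 perineurial markers Lgals3 rose 1.73-fold and Itgb4, Slc2a1 and Cldn1 did not pass (-0.52, -0.29 and -0.12; 2 were lower at an unadjusted p under 0.05 in limma), with a median of -0.20 and a sum from 5.41 to 5.77 in Ctrl and from 5.15 to 5.42 in OGT_SCKO. Of 5 adipocyte markers that passed the filter, Fabp4 fell 5.71-fold, but not with normexp or with slide as a block. Cidec, Adipoq and Retn were above background on 1, 1 and 2 of 3 OGT_SCKO arrays. They were kept through Ctrl alone, so their lower values are a description. The sum of the 5 ran from 0.088 to 2.14 in Ctrl and from -2.31 to -0.63 in OGT_SCKO, where it holds values not above background.

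Beside Sync, 8 of 12 measured skeletal muscle markers fell and none rose in limma (0 higher and 9 lower at an unadjusted p under 0.05), while Ckm, Myh1 and Myh2 did not pass the filter. The 8 include Tcap, which was above background on 1 of 3 OGT_SCKO arrays and was kept through Ctrl alone. Actn3 fell 14.3-fold, Acta1 2.64-fold, Casq1 2.53-fold and Tnnc2 2.29-fold. The muscle sum ran from 2.82 to 3.00 in Ctrl and from 1.56 to 2.21 in OGT_SCKO. With normexp 3 of the muscle markers fell and with slide as a block 2. Mylpf, Atp2a1 and Myoz1 had positive changes that did not pass (0.56, 0.17 and 0.03), and Tnni2 a negative one (-0.72). Sync had a positive change in every setting. The muscle sum is that of the reported setting, and its relation to Sync was not tested.

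Genes with the profile most like that of Gfap were found by the root mean square distance between levels centred on the Ctrl mean, over the 6 arrays. The nearest was Edn2, the peptide endothelin 2, at a distance of 0.16, seen above background in no Ctrl pool; its level in OGT_SCKO was at least 4.80-fold that of Ctrl. Cyp4b1 (0.26), Cldn3 (0.32), Cnn1 (0.34) and Cxcl14 (0.35) followed. Cnn1 was above background on 1 of 3 Ctrl arrays, so its distance rests in part on Ctrl values not above background. For Nefl the nearest were F13a1 (0.040), Diablo (0.051), Tbc1d23 (0.053), Nrd1 (0.054) and Hsbp1l1 (0.055), none of which passed the test (limma adjusted p from 0.0774 to 0.118). These genes were chosen for their likeness, so their values are a description.

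Promoters of 6 of the 9 genes were read from RefSeq sequences (GRCm38.p6), over the 250 bases before the start, and those of Gfap, Vim and Prph are shown because they belong to type III genes that rose, did not pass and fell. Searches on both strands used TGANTCA, the AP-1 site that JUN dimers bind, TTCNNNGAA, a STAT site, and TATAAA, the TATA box, none of which overlapped another in these windows. TGANTCA was in none of the 6 windows and in 6.75% of 32851 promoter windows. TTCNNNGAA was in that of Sync alone and in 7.02% of all. TATAAA, in capitals below, was in those of Vim and Prph and in 12.4% of all, beginning 32 and 31 bases before the start. A match is a description of the letters, and no match says only that the letters are not in this window.
Gfap, chr11:102897201-102897450, minus strand: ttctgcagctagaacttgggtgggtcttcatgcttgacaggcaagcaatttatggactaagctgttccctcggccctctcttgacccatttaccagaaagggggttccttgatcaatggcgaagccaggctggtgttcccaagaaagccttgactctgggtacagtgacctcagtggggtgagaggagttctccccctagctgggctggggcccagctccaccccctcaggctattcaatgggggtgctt
Vim, chr2:13574061-13574310, plus strand: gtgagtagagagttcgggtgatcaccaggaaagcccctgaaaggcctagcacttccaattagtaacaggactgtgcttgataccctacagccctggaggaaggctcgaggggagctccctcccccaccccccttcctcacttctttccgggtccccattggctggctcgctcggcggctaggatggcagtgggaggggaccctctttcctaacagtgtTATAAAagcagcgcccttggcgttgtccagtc
Prph, chr15:99054924-99055173, plus strand: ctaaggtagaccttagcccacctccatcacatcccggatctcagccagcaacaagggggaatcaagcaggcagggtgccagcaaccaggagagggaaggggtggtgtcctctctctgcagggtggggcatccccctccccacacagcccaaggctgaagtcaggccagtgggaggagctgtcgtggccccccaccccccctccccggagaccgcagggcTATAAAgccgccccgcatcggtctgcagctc

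**Figure D5:**
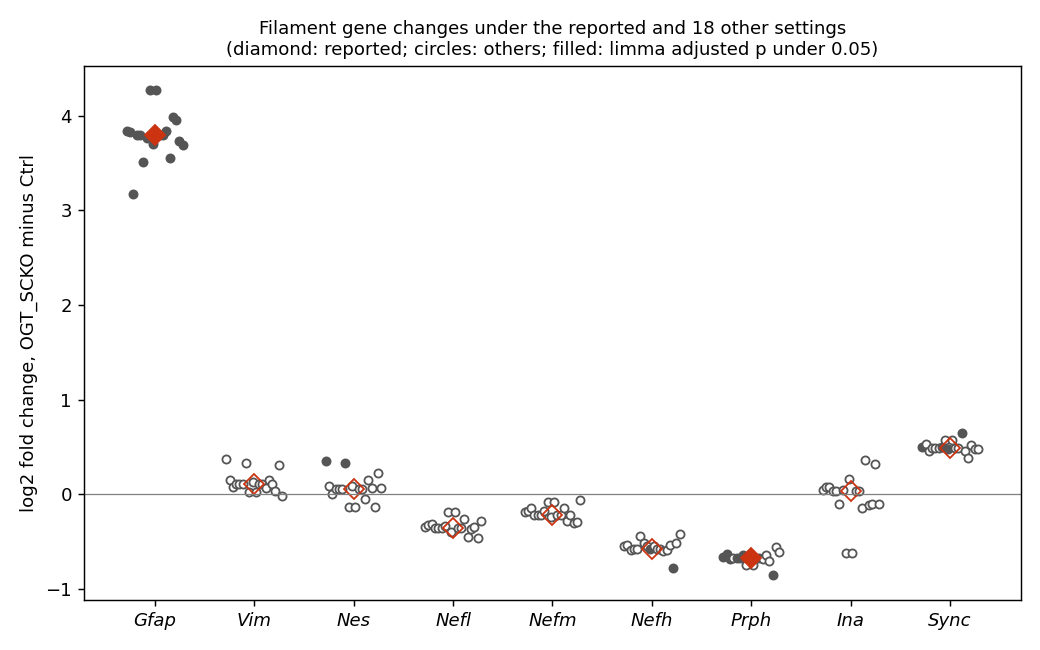
Log2 fold change of each filament gene (vertical axis) under the reported setting (diamond) and 18 others (circles), filled where limma's adjusted p passed. Gfap stays between 3.18 and 4.27 and is filled throughout, Prph stays between -0.85 and -0.55, and Ina and Nes lie on both sides of 0.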

How the data were processed

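A pool's RNA was put on each array, labelled with Cy5, per the labels. Per the submitters' processing notes, signals were extracted with Agilent Feature Extraction 11.5.1.1. Per the file headers, the deposited intensity values (processed signal) were background-subtracted and detrended within arrays and named on build mm9. The authors' deposited table holds log2 values, with the same median (9.13) and quartiles in every column; it was treated as quantile normalised, its direction is that of the signal, and its other processing is unknown. Background, saturation and outlier flags are those of the file headers' software.

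Control and outlier spots were left out, log2 processed signal was set against each array's 75th percentile, and spots of a probe were averaged. A probe was kept (24289 were) if every array of 1 group or of both had it well above background, and a gene was represented by its brightest kept probe. Accessions were matched to RefSeq (27649 of 39429 probes). Groups were compared with limma 3.58.1 in R 4.3.3, tested on simulated data, with calls at an adjusted p under 0.05; single values used exact two-sided permutation tests. Alternatives covered scaling, background, filters, probes, slide, replicate number, variance and each array left out; normexp used an offset of 50. Named are all 9 genes with every probe, up to 4 passing genes per list by smallest p, Ogt and Jun, and 5 nearest profiles for Gfap and Nefl. The genes and lists were chosen with earlier results of these data known; Des, Synm, Plec, Kif5a, Tubb3 and marker genes beyond 4 a list or that did not pass were named after their values were seen. Some genes of the marker lists are not reported here by name.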

Additional observations from a re-analysis of the deposited data

How the results depend on the processing

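Gfap passed under all 18 other settings, and Nefl, Nefm, Vim and Ina passed under none; the signs of Gfap, Nefl, Nefm, Nefh, Prph and Sync held in all 18. Beside 2 filament genes and 14 genes of the related lists called, quantile normalisation called 4 filament genes, adding Nes (0.35) and Sync (0.51), and the deposited values 4, adding Nes (0.34) and Sync (0.50). A slide random block called 4, adding Nefh (-0.58) and Sync (0.48). Normexp called 9 list genes (2722 of all genes, beside 4438). No filter left 1 filament gene (Prph -0.67, adjusted p = 0.0838) and 6 list genes (2629 of all). With slide as a fixed block 1 filament gene and 5 list genes passed (1226 of all), and on slide 1 alone 1 and 1 (406 of all); in both Prph was -0.75 (no call), Nes turned to -0.13 and Ina to -0.62. The mean of a gene's probes turned Ina to -0.10. On slide 1 alone Ogt (-1.32, adjusted p = 0.0537) and Jun (1.40, adjusted p = 0.0647) did not pass. The cause was not tested, but both slide settings rest on Ctrl 2 as the one control. Leaving out 1 pool gave 1 to 3 filament genes, 5 to 17 list genes and 1974 to 5629 genes in all. It gave ranges of -0.019 to 0.31 for Vim, -0.13 to 0.23 for Nes, -0.78 to -0.42 for Nefh, -0.85 to -0.55 for Prph, -0.14 to 0.36 for Ina and 0.38 to 0.65 for Sync. No pairing by replicate number was seen: deviations of same-numbered pools correlated at -0.27, -0.53 and 0.06, and 0 of 3 Ctrl pools correlated best with its own number. Deviations from the mean of 3 pools depend on each other, so these values cannot decide whether pools were paired. With the replicate block 1 filament gene, 5 list genes and 1475 of all genes were called, and Prph was -0.67 (adjusted p = 0.101). Signal over background limits the upstream Gfap probe and Syt1 to bounds.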
